A study of Rattus norvegicus with 42 samples.

Results

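The genes described here make, load, take up and break down the neurotransmitter GABA: Gad1, Gad2, Slc32a1, Slc6a11, Abat and Aldh5a1. They were chosen by name, and every probe set whose annotation gave 1 of these 6 symbols and no other was kept, which gave 6 of 14217 named genes and 11 of 31042 tested probe sets: 2 for Gad1, 3 each for Abat and Aldh5a1, and 1 each for Gad2, Slc32a1 and Slc6a11. Their RNA levels were measured on 42 Affymetrix rat GeneChip arrays in brain, liver and lung of 1 untreated rat (animals aged 9-12 weeks, per the labels), as 3 pure tissues and as 11 mixtures in which labelled RNA (cRNA) of the 3 tissues was combined in known shares. Each of the 14 groups had 3 arrays, all technical replicates, so a p-value here rests on array-to-array spread alone and says nothing of other animals. Each mixture is named by 3 percentages, first the share of liver, then of brain, then of lung: 70/5/25, 55/20/25, 5/25/70, 70/25/5, 50/30/20, 55/30/15, 65/34/1, 60/35/5, 50/40/10, 45/45/10 and 25/70/5. The study's stated aim was to test how well the make-up of a mixed sample can be worked out from its expression values.

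GABA is the main inhibitory transmitter of the brain. Glutamate decarboxylases (Gad1, Gad2) make it from glutamate, a vesicular transporter (Slc32a1) loads it into synaptic vesicles, and carriers of the plasma membrane, Slc6a11 among them, mainly on astrocytes, clear it from the extracellular space. GABA transaminase (Abat) then turns GABA into succinate semialdehyde, and succinate semialdehyde dehydrogenase (Aldh5a1) oxidises that to succinate, which enters the citric acid cycle. The synthesis and vesicle genes mark GABA neurons, whereas both breakdown enzymes are mitochondrial and are also known in liver, where Abat handles beta-alanine as well.

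RefSeq promoter windows (rat build GRCr8, 250 bases before to 50 after the annotated start) were matched for 5 of the 6 genes and not for Abat. They are shown for the 3 genes that were higher in brain than in both other tissues, and for Aldh5a1, which was high in brain and in liver, on the plus strand, 5′ to 3′. Capitals mark every match, on either strand, to 4 short motifs that were searched: the TATA box written TATAAA, the GC box written GGGCGG, the promoter element known by its letters CCAAT, and the homeodomain core written TAATTA. The windows were chr3:75777202-75777501 for Gad1, chr17:89671468-89671767 for Gad2, chr3:167686995-167687294 for Slc32a1 and chr17:40560123-40560422 for Aldh5a1.
Gad1: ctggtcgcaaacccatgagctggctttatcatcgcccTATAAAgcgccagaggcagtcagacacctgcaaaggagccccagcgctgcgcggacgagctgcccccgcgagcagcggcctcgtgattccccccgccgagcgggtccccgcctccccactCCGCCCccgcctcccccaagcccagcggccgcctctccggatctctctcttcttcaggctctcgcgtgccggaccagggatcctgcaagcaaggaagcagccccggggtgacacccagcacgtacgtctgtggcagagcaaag
Gad2: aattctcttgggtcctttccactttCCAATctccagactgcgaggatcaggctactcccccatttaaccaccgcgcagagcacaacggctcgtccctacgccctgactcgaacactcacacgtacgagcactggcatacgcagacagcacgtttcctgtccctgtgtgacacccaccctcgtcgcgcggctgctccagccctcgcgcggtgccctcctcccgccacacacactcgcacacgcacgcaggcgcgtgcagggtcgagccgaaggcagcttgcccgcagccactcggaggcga
Slc32a1: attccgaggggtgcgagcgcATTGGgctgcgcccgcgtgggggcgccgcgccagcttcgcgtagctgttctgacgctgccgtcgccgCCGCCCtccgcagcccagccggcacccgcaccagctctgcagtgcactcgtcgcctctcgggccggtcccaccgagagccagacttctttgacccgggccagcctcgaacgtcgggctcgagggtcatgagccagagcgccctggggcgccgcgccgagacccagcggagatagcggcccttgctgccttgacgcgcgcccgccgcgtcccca
Aldh5a1: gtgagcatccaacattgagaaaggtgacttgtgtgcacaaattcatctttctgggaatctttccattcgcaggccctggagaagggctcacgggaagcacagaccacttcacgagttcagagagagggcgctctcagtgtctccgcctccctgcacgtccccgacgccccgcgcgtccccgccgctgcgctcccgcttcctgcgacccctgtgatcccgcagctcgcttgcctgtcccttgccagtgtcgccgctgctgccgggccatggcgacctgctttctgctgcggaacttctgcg
The Gad1 window held 1 TATAAA match, whose first base lay 213 bases before the annotated start, and 1 GC box on the minus strand. The Gad2 window held 1 CCAAT box, the Slc32a1 window 1 CCAAT box and 1 GC box, both on the minus strand, and the Aldh5a1 window none of the 4 motifs. Over 33469 promoter windows of this length, 14.2% held the TATA box, 33.1% the GC box, 37.5% the CCAAT box and 5.36% the homeodomain core. The 4 windows were rich in CpG: Slc32a1 had 42 CpG dinucleotides, Gad2 29, Gad1 26 and Aldh5a1 24, against a median of 7 over all windows. The matches describe letters in these windows and were not compared with any measure of binding.

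The array values are log2 levels (RMA), array medians lay between 5.48 and 5.83, and the median SD between replicate arrays was 0.09 in brain, 0.12 in liver and 0.09 in lung. Neuron markers (5 of 5 measured, Snap25 and Nefl among them) were higher in brain than in both other tissues, hepatocyte markers (5 of 5) in liver and lung epithelium markers (4 of 4) in lung, so the tissue labels fitted their markers. Pure brain arrays nevertheless read Alb (albumin), a hepatocyte marker, at 12.21 ± 0.02 (SD, n = 3), against 14.31 ± 0.08 in liver and 5.07 ± 0.25 in lung, while the other 4 hepatocyte markers were at 3.47 to 6.72 in brain. Markers of pancreatic islets, another tissue that makes GABA, were at 3.22 to 4.53 in brain, 3.48 to 5.23 in liver and 3.13 to 4.70 in lung, and 0 of 4 were higher in a tissue than in both others. The array's 27 control probe sets for bacterial genes (dap, lys, phe, thr and trpn) read at most 3.66 in brain, 4.58 in liver and 3.51 in lung, and levels at or below these are called control levels here. Hybridisation controls were not level across groups: bioB, the dimmest, read 7.74 in brain, 8.599 in liver and 7.69 in lung, and in the mixture 60/35/5 it read 8.42, the highest of the mixtures. The brightest, cre, was instead lowest in liver, at 13.69 in brain, 13.27 in liver and 13.46 in lung.

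Gad1, Gad2 and Slc32a1 were brain genes in these arrays, with levels in liver and lung at or near those of the bacterial controls. In whole tissue, a smaller number of cells of a type and less RNA per cell cannot be told apart. By the probe set 1368344_at, Gad1 read 11.41, 11.31 and 11.41 in brain, against 3.64, 3.23 and 3.12 in liver and 3.31, 3.17 and 3.22 in lung. No brain array came near an array of the other tissues, and liver and lung overlapped at control level. The difference was 8.05 ± 0.07 (SE, log2) between brain and liver, an approximate 265-fold (limma, adjusted p = 6.38e-41), and 8.14 ± 0.07 between brain and lung (limma, adjusted p = 1.16e-40). The other Gad1 probe set, 1370760_a_at, read 7.37, 7.44 and 7.45 in brain, against 3.48, 3.29 and 3.75 in liver and 3.01, 3.01 and 3.01 in lung. Its groups did not overlap, and brain was 15.1-fold above liver and 21.3-fold above lung.

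Gad2, the second decarboxylase, read 7.77, 8.04 and 7.88 in brain, against 5.35, 4.26 and 4.18 in liver and 4.30, 3.72 and 3.86 in lung. The first liver array stood above the other 2, and liver had the widest spread of this probe set (SD 0.65). Brain was 9.84-fold above liver (3.30 ± 0.17, SE, log2; limma, adjusted p = 9.24e-19) and 15.3-fold above lung. Slc32a1, the vesicular transporter, read 8.30, 8.24 and 8.28 in brain, against 3.43, 3.80 and 3.996 in liver and 4.21, 3.58 and 3.41 in lung. Brain stood clear of both, by 23.2-fold over liver and 23.4-fold over lung (limma, adjusted p = 1.73e-27 and 2.22e-27). Liver and lung overlapped, with a difference of 0.01 (95% confidence interval -0.23 to 0.25).

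Slc6a11, the astrocyte carrier, was dim in every group. It read 3.85, 3.85 and 4.16 in brain, against 3.37, 3.19 and 3.61 in liver and 2.91, 3.18 and 3.24 in lung. Brain arrays lay above all others, with a mean of 3.95 beside 3.66 for the highest bacterial control in brain, and liver and lung were at control level. The differences, 0.56 (95% confidence interval 0.27 to 0.85) from liver and 0.84 (0.55 to 1.14) from lung, did not reach 2-fold. With a curve through the hybridisation controls, brain against liver was 1.42 for Slc6a11 and called (limma, adjusted p = 1.21e-08). Astrocyte markers were plain in the same brain arrays: Gfap was at 10.59 and Slc1a3, a glutamate carrier of astrocytes, at 11.67, and 4 of 6 such markers were higher in brain than in both other tissues. The other 2 were highest in liver, Aldh1l1 at 7.30 in brain and 11.32 in liver and Slc1a2 at 6.05 in brain and 6.67 in liver.

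In the pure tissues Abat was highest in liver and next in brain, with every step called by its brightest probe set alone. The mixtures alone, described below, did not set brain apart from lung by that probe set. By this probe set, 1369799_at, Abat read 6.86, 6.96 and 6.77 in brain, 9.49, 9.48 and 9.55 in liver, and 3.10, 3.22 and 3.29 in lung. The 3 tissues were fully apart, and lung was at control level. Brain minus liver was -2.64 ± 0.05 (SE, log2), a 6.25-fold difference (limma, adjusted p = 1.1e-30), and brain stood 3.66 ± 0.05 above lung (12.7-fold, limma, adjusted p = 1.26e-34). Liver was 79.1-fold above lung (limma, adjusted p = 1.22e-41). The other Abat probe sets, 1375321_at and 1391365_at, gave the same order of means with smaller steps. Neither was called for brain against liver (-0.97 and -0.24) or brain against lung (0.92 and 0.72). The probe set 1375321_at read 4.91, 4.63 and 4.86 in brain, against 5.86, 6.34 and 5.10 in liver and 3.92, 3.85 and 3.87 in lung, with the widest spread in liver (SD 0.63). The probe set 1391365_at averaged 4.34 in brain, 4.58 in liver and 3.62 in lung, with liver beside 4.58 for the highest bacterial control. With a curve through the hybridisation controls its brain minus liver turned to 0.61, not called.

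Aldh5a1 had no single order, because its probe sets disagreed. By the brightest, 1379900_at, it read 8.48, 8.63 and 8.47 in brain, against 7.87, 7.84 and 7.95 in liver and 5.50, 5.53 and 5.46 in lung. Brain was highest without overlap, but only 1.56-fold above liver (0.64 ± 0.06, SE, log2; limma, adjusted p = 2.96e-11), below the 2-fold limit, and 8.18-fold above lung. By 1371062_at, it read 5.995, 5.91 and 6.10 in brain, against 7.27, 7.41 and 7.25 in liver and 5.14, 5.12 and 4.94 in lung. Here liver was highest without overlap, and brain minus liver was -1.30 ± 0.10, a 2.47-fold difference (limma, adjusted p = 4.4e-14). The remaining probe set, 1391657_at, averaged 3.91 in brain, 4.21 in liver and 3.85 in lung, with brain overlapping both. What each of the 3 probe sets detects on the gene was not analysed here.

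Over the 11 probe sets, 4 were called higher in brain than in liver (adjusted p under 0.05 and at least 2-fold) against 18.9% of all probe sets, and 2 lower against 14.6%. Brain against lung gave 6 higher (15.0% of all) and 0 lower (15.9%), and liver against lung gave 4 higher (10.8%) and 0 lower (17.2%). Higher in lung than in both other tissues were 0 members (8.95% of all). The counts by gene were sharper: both Gad1 probe sets, Gad2 and Slc32a1 were higher in brain than in both other tissues (11.5% of all probe sets were), and Abat 1369799_at and Aldh5a1 1371062_at were higher in liver than in both others (7.28%). The members' median difference was 0.56 for brain against liver, beside -0.18 over all probe sets, 3.03 for brain against lung, beside -0.03, and 0.63 for liver against lung, beside 0.12.

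The scale between tissues bears on the smaller of these differences. With each array centred on its median, the median of all probe sets for brain against liver was -0.42 and 42.7% of calls were higher in brain, against 56.3% as deposited, and with a curve through the hybridisation controls they were 0.65 and 83.4%. For liver against lung the medians were 0.37 and -0.78, and 56.2% and 10.1% of calls were higher in liver, against 38.7% as deposited. The brain calls of Gad1, Gad2 and Slc32a1 and the liver calls of Abat 1369799_at held under both scalings. The Aldh5a1 probe sets did not: with the control curve brain was above liver by 1.45 for 1379900_at, now past the limit, and the difference for 1371062_at was -0.45, no longer past it. Of the other calls, liver against lung of Abat 1375321_at was 0.97 with the control curve, short of 2-fold, and brain against liver of that probe set was -1.21 with median centring, past the limit.

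**Figure D1:**
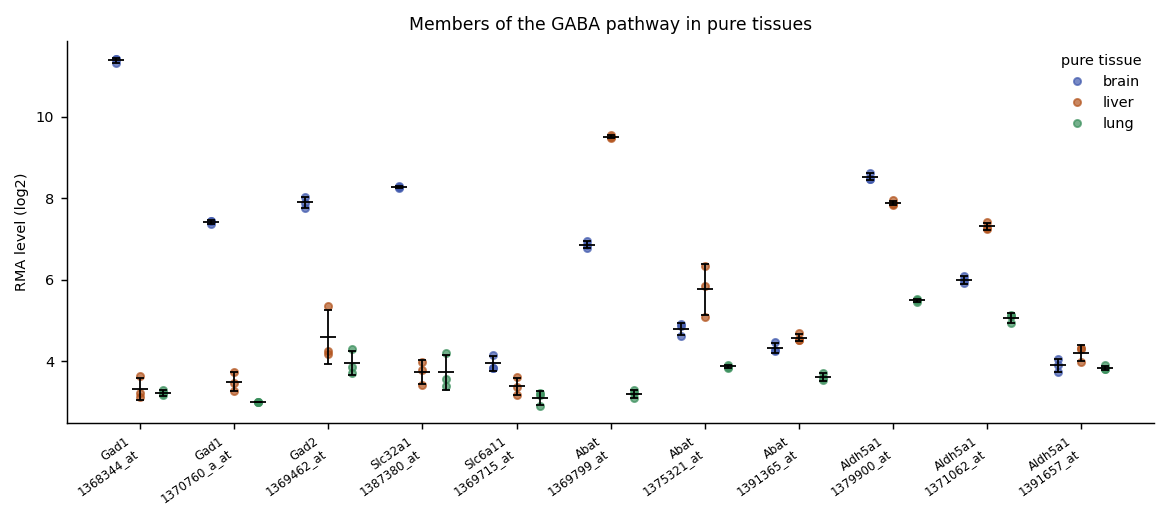
RMA levels (log2, y axis) of the 11 probe sets in pure brain, liver and lung: points are single arrays (3 per tissue), and bars give the mean and SD. Gad1, Gad2 and Slc32a1 stand high in brain alone, Abat 1369799_at is highest in liver (9.51), then brain (6.86), and the 2 brighter Aldh5a1 probe sets differ in whether brain or liver is higher.

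Genes around the pathway were counted by lists chosen with earlier results of these data known, and "higher" here means called above both other tissues. Of the 4 other carriers that can take up GABA, 2 were measured: Slc6a13 was at 5.66 in brain, 9.83 in liver and 3.34 in lung, 18.0-fold higher in liver than in brain, and Slc6a6, the taurine carrier, was the only one higher in lung, 2.28-fold above brain. Of 8 genes that supply glutamate and glutamine, 7 were measured, and 1 was higher in brain (11.5% of all probe sets were), 3 in liver (7.28%), 0 in lung (8.95%) and 3 in none. The brain gene was Slc38a1, a glutamine carrier of neurons (10.5-fold), and the liver genes were Slc38a3, another glutamine carrier (13.95-fold), Gls2, the liver-type glutaminase (4.87-fold), and Glud1, glutamate dehydrogenase (3.11-fold). Glul, glutamine synthetase, was highest in brain at 11.46, against 10.55 in liver and 9.28 in lung, short of 2-fold over liver.

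Side routes of GABA and succinate semialdehyde leaned to liver, as Abat did. Of 14 such genes 12 were measured, and 0 were higher in brain (11.5% of all probe sets were), 6 in liver (7.28%), 1 in lung (8.95%) and 5 in none. Agxt2, an aminotransferase, was 78.6-fold higher in liver than in the next tissue, and the aldehyde reductase genes Akr7a3 and Akr7a2 were 7.53-fold and 6.20-fold higher. Aoc1, diamine oxidase, which starts the route from putrescine, was the lung gene at 3.80 in brain, 5.13 in liver and 9.45 in lung, a 19.9-fold difference. Genes that mark GABA neurons went with Gad1, Gad2 and Slc32a1, though not they alone. Of 15 transcription factors, peptides and other markers of these neurons 11 were measured. Of these, 9 were higher in brain (11.5% of all probe sets were), 0 in liver or lung and 2 in none. Calb1 (calbindin) was 186-fold, Cck 35.0-fold, Pvalb (parvalbumin) 28.4-fold and Sst (somatostatin) 22.4-fold above the next tissue. Npy, at 9.08 in brain and 8.58 in lung, and Erbb4, at 4.03 in brain and 3.43 in liver, were not called. Markers of other brain cells were higher in brain too: 3 of 3 of glutamate neurons and 2 of 2 measured of oligodendrocytes. So were 4 of 4 of cerebellar granule and Purkinje cells, Calb1 among them. Of 6 synapse genes 4 were measured, and Slc12a5, the chloride extruder that GABA inhibition needs (50.0-fold), and Nlgn2 (3.39-fold) were higher in brain, while Gphn and Slc12a2 were in none.

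In the mixtures, the brain genes followed the labelled share of brain. Gad1 1368344_at averaged 7.99 at 5% brain, 9.64 at 20%, 9.68 (5/25/70) and 10.07 (70/25/5) at 25%, 10.16 (50/30/20) and 10.15 (55/30/15) at 30%, 10.33 at 34%, 10.32 at 35%, 10.46 at 40%, 10.58 at 45% and 10.999 at 70%, with SDs of at most 0.12. Ordered by level over all 14 groups, 9 of 13 neighbouring groups had no overlapping arrays, and the 4 that overlapped were lung and liver, 55/20/25 and 5/25/70, 55/30/15 and 50/30/20, and 60/35/5 and 65/34/1. A mixture of 20% brain with 55% liver thus could not be told from a mixture of 25% brain with 70% lung by this probe set.

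Gad2 and Slc32a1 followed the same shares. Gad2 averaged 4.81 at 5% brain, 5.98 (5/25/70) and 6.66 (70/25/5) at 25%, 7.29 at 45% and 7.67 at 70%, and Slc32a1 averaged 5.01, 6.43, 6.99, 7.54 and 7.92 in the same mixtures. At 20% brain in 55/20/25 both stood above 5/25/70 without overlap, Gad2 at 6.32 and Slc32a1 at 6.66, although 5/25/70 holds more brain. Of 13 neighbouring groups, 6 overlapped for Gad2 and 4 for Slc32a1. For Gad2 the 70/5/25 arrays, at 4.60, 5.00 and 4.82, overlapped pure liver only through liver replicate 1 (5.35), and lay above the other liver arrays and every lung array. Gad1 and Slc32a1 arrays at 5% brain lay above every pure liver and lung array.

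Slc6a11 stayed between 3.16 and 3.81 (group means) in the mixtures, and all 13 neighbouring groups overlapped. Some groups further apart did not overlap: 70/25/5 lay above 5/25/70 by 0.45 and above 70/5/25 by 0.40 (limma, adjusted p = 0.00704 and 0.0216). Between 25/70/5 and 70/25/5 the Slc6a11 difference was 0.01 (limma, adjusted p = 0.944). Abat 1369799_at followed liver: it averaged 5.94 at 5% liver, 7.63 at 25%, 8.15 at 45%, 8.32 (50/30/20) and 8.27 (50/40/10) at 50%, 8.38 (55/30/15) and 8.42 (55/20/25) at 55%, 8.55 at 60%, 8.70 at 65%, and 8.87 (70/25/5) and 8.89 (70/5/25) at 70%. Its SDs were at most 0.09 in the mixtures, and 9 of 13 neighbouring groups did not overlap. Aldh5a1 1379900_at was lower in mixtures with much lung: it averaged 6.98 in 5/25/70 with 70% lung, 7.20 in 70/5/25 and 7.47 in 55/20/25 with 25% lung, 8.01 in 65/34/1 with 1% lung and 8.17 in 25/70/5. Aldh5a1 1371062_at ran from 5.26 in 5/25/70 to 6.38 in 65/34/1, and every mixture lay below pure liver (7.31).

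**Figure D2:**
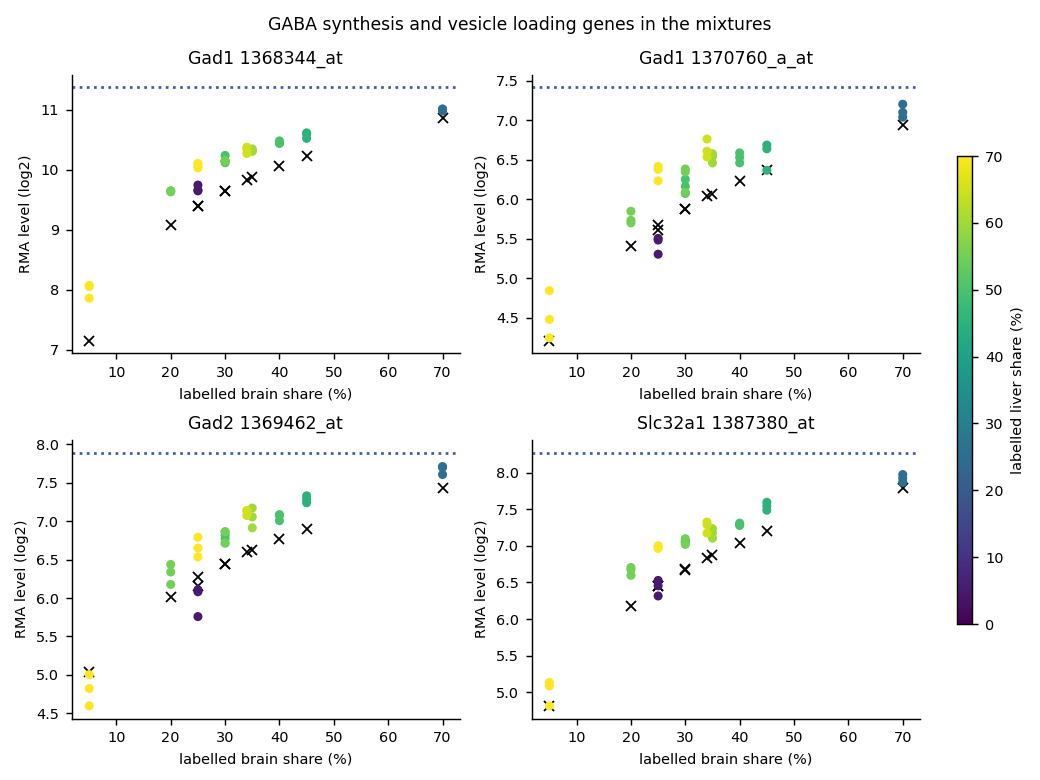
RMA levels (log2, y axis) of the synthesis and vesicle probe sets against the labelled brain share (%, x axis): circles are the 33 mixture arrays, coloured by labelled liver share, crosses the level expected from the shares and the pure tissues, and the dotted line the mean of pure brain. At 25% brain the arrays of 70/25/5 (70% liver) lie above those of 5/25/70 (5% liver) in each panel, while both have nearly the same expected level.

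**Figure D3:**
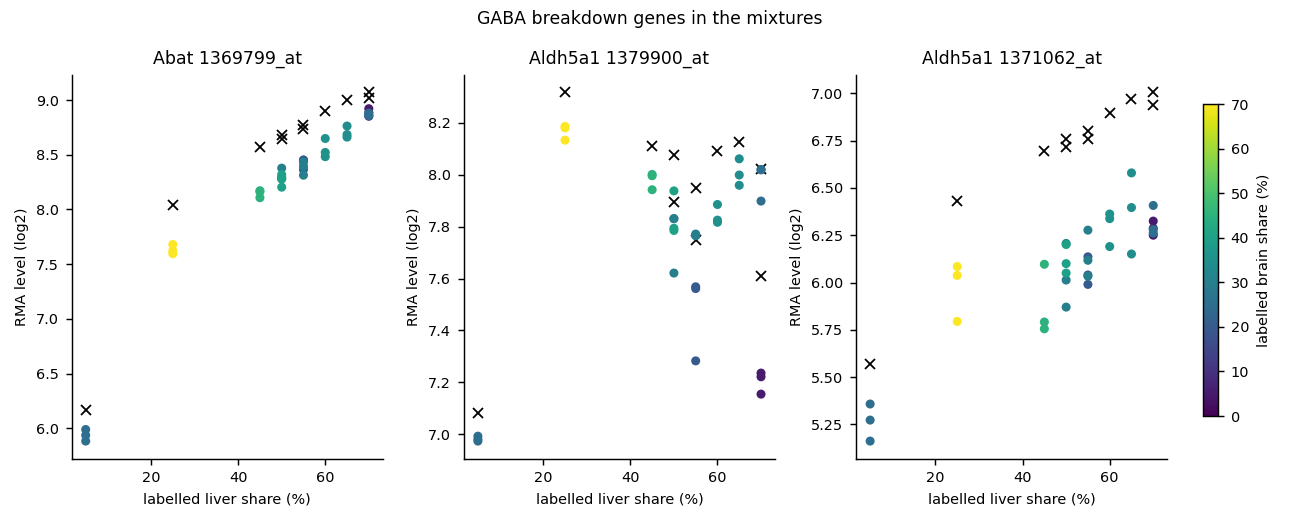
RMA levels (log2, y axis) of Abat 1369799_at and 2 Aldh5a1 probe sets against the labelled liver share (%, x axis): circles are the 33 mixture arrays, coloured by labelled brain share, and crosses the expected levels. Abat is higher the more liver the mixture holds (5.94 at 5%, 8.89 in 70/5/25), Aldh5a1 1379900_at spreads with the other tissues at equal liver share, and circles of Aldh5a1 1371062_at lie below its crosses.

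Pairs of mixtures that share the percentage of 1 tissue exchange the other 2 (6 pairs over 11 probe sets, 66 tests among those adjusted over all probe sets in each pair, a call needing an adjusted p under 0.05 but no minimum fold). When 45 points of liver were replaced by brain (25/70/5 minus 70/25/5), 5 members were higher (30.9% of all probe sets) and 2 lower (22.1%). Gad1 1368344_at read 11.01, 10.98 and 11.01 in 25/70/5 and 10.11, 10.06 and 10.03 in 70/25/5, a difference of 0.93 ± 0.07 (SE; limma, adjusted p = 7.49e-13), where the shares and pure levels give 1.47. Gad2 differed by 1.01 (1.17 from the shares) and Slc32a1 by 0.94 (1.34). Abat 1369799_at was lower in 25/70/5, with 7.62, 7.60 and 7.68 against 8.88, 8.86 and 8.86 in 70/25/5, a difference of -1.23 ± 0.05 (limma, adjusted p = 9.84e-20; -1.03 from the shares), which was -0.77 with the control curve. The 2 Aldh5a1 probe sets differed in sign here too, by 0.19 for 1379900_at (limma, adjusted p = 0.0117, and 0.0803 without replicate 3 of 70/25/5) and by -0.34 for 1371062_at (limma, adjusted p = 0.00356). These signs rest on the scale: with the control curve the difference was 0.63 for 1379900_at and 0.12 for 1371062_at, the second not called (limma, adjusted p = 0.651), and with quantile normalization repeated 1379900_at was 0.14 and not called (limma, adjusted p = 0.0633).

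With brain held at 25% and lung replaced by liver (70/25/5 minus 5/25/70), 10 of 11 members were higher (30.7% of all) and 0 lower (30.6%). For Abat, called 2.93 ± 0.05 higher (limma, adjusted p = 4.64e-31), the shares gave 2.91. The brain genes were higher as well, although the shares gave differences of only 0.00 to 0.11 for them. Gad1 1368344_at read 10.11, 10.06 and 10.03 in 70/25/5 and 9.74, 9.66 and 9.65 in 5/25/70, a difference of 0.38 ± 0.07 (limma, adjusted p = 3.8e-05), and the arrays did not overlap. Gad1 1370760_a_at differed by 0.91 ± 0.11, Gad2 by 0.68 ± 0.17 and Slc32a1 by 0.55 ± 0.12 (limma, adjusted p = 5.71e-09, 0.000876 and 0.000147). The dimmer hybridisation controls differed in the same direction, with bioB at 8.19 in 70/25/5 and 7.70 in 5/25/70 and bioC at 9.596 and 9.16. The brighter ones were instead lower in 70/25/5, with bioD at 11.67 and 11.69 and cre at 13.43 and 13.545. The median difference of all probe sets was 0.05. After the curve through these controls the differences of the 4 brain probe sets were 0.04, 0.43, 0.19 and 0.07, each with a wider SE of 0.241. None was called (limma, adjusted p = 0.899, 0.136, 0.512 and 0.824).

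With liver held and lung replaced by brain (70/25/5 minus 70/5/25), 7 members were higher (21.4% of all) and 0 lower (25.4%). Gad1 1368344_at read 10.11, 10.06 and 10.03 in 70/25/5 and 8.05, 8.07 and 7.86 in 70/5/25, a 4.21-fold difference (limma, adjusted p = 4.61e-22), where the labelled brain shares are 25% and 5%. Gad2 differed 3.61-fold and Slc32a1 3.93-fold. Abat 1369799_at did not separate these mixtures (-0.02, limma, adjusted p = 0.798), and the shares gave 0.06. For 55/20/25 minus 70/5/25, 5 members were higher (17.3%) and 2 lower (23.1%): Gad1 1368344_at by 1.65, Gad2 by 1.51 and Slc32a1 by 1.65 upward, and Abat 1369799_at by -0.46 (limma, adjusted p = 1.35e-08). With the control curve the Abat difference was -0.16 and not called (limma, adjusted p = 0.719).

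Smaller steps of brain were still seen. With 10 points of lung replaced by brain (55/30/15 minus 55/20/25), 5 members were higher (9.44% of all) and 0 lower (10.2%). Gad1 1368344_at read 10.15, 10.14 and 10.15 in 55/30/15 and 9.65, 9.63 and 9.65 in 55/20/25, a difference of 0.50 ± 0.07 (limma, adjusted p = 4.34e-06), close to the 0.58 from the shares. Slc32a1 differed by 0.39 (limma, adjusted p = 0.0166, and 0.0651 without replicate 3 of 55/20/25 or 0.061 without replicate 3 of 55/30/15), and Gad2 by 0.45, which was not called (limma, adjusted p = 0.0623) but was without liver replicate 1, 2 or 3 or lung replicate 1 (limma, adjusted p between 0.00246 and 0.0484). After the control curve none of these was called. With 5 points of liver replaced by brain (45/45/10 minus 50/40/10), limma called 0 of 11 members and 0 of all 31042 probe sets (0.00%), although 3915 had an unadjusted p under 0.05, and limma with a variance trend and robust spread, changed together, called 127 of all.

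Levels expected for each mixture were computed as the share-weighted sum of the pure levels on the linear scale, and the observed level minus the expected one was averaged over the 11 mixtures. The brain genes lay above expectation and the breakdown genes below it. Gad1 1368344_at was above in 11 of 11 mixtures, by 0.47 ± 0.05 on average (SE, log2; limma, adjusted p = 2.65e-09). At 5% brain it read 7.99 where 7.15 was expected (a difference of 0.84), at 25% brain 10.07 where 9.39 was expected in 70/25/5 and 9.68 where 9.39 was expected in 5/25/70, and at 70% brain 10.999 where 10.86 was expected. The mean difference was 0.32 for Gad1 1370760_a_at (above in 10 of 11), 0.31 for Slc32a1 (10 of 11) and 0.26 for Gad2 (9 of 11), each under the 1.5-fold limit. The exceptions were 5/25/70 for all 3 and 70/5/25 for Gad2.

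Abat and Aldh5a1 lay below expectation in 11 of 11 mixtures by each of their 6 probe sets. This direction depends on the scale: the mean difference of Abat 1369799_at was 0.0011 with the control curve, and with share-weighted log2 levels it was 0.64 and called (limma, adjusted p = 3.84e-21), where that of Aldh5a1 1379900_at was 0.048. The mean difference was -0.32 ± 0.04 for Abat 1369799_at, which read 8.15 in 45/45/10 where 8.57 was expected, and -0.18 ± 0.03 for Aldh5a1 1379900_at. Over all probe sets the median was -0.22, so both were near it, and the median of the members was -0.18. Of the 11 probe sets 0 were called higher (0.325% of all) and 2 lower (4.84%): Abat 1375321_at by -0.75 ± 0.09 (limma, adjusted p = 1.84e-08) and Aldh5a1 1371062_at by -0.62 ± 0.06 (limma, adjusted p = 1.95e-11). Without pure liver replicate 2 neither was called, as the differences were -0.56 and -0.58 and fell short of 1.5-fold. For Aldh5a1 1371062_at this was only just short, and without single arrays its difference ran from -0.64 to -0.58. With the control curve the differences of these probe sets were -0.48 and -0.31 and not called. Slc6a11 was at -0.02 ± 0.07 (limma, adjusted p = 0.814), above in 6 mixtures and below in 5.

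**Figure D4:**
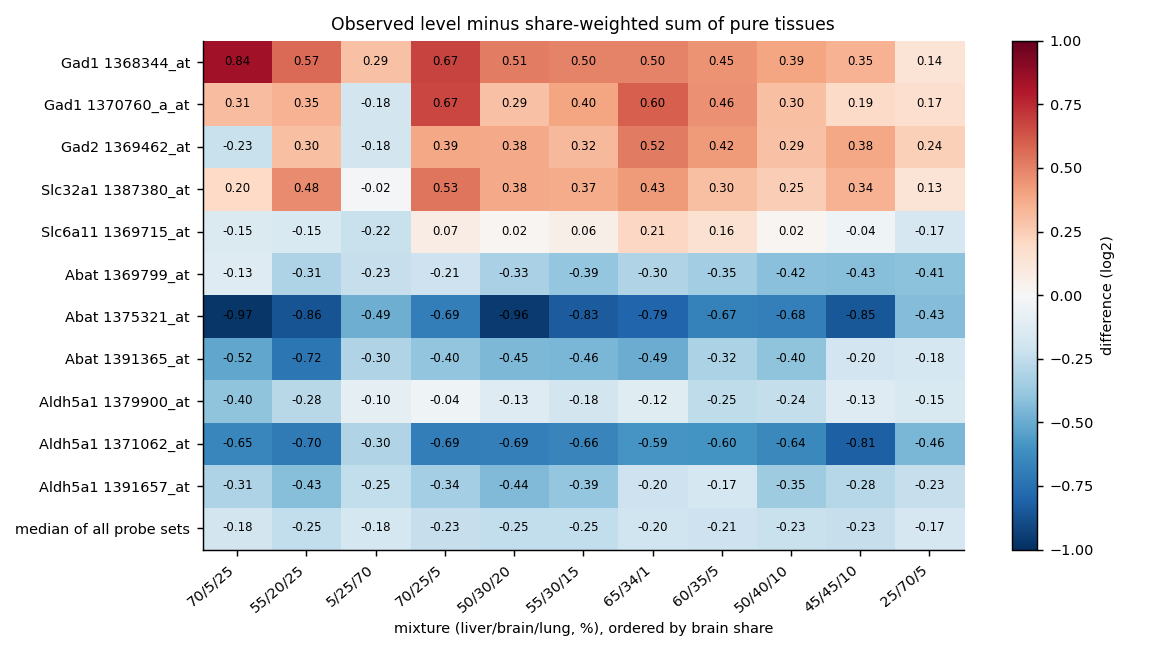
Observed minus expected log2 level (colour and printed value) of the 11 probe sets (rows) in the 11 mixtures (columns, liver/brain/lung in %, by rising brain share), with the median of all probe sets in the last row. Gad1 1368344_at is positive throughout, from 0.84 at 5% brain to 0.14 at 70%, and the Abat and Aldh5a1 rows are negative throughout.

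Tissue levels were also estimated from the mixtures alone, by regressing the 11 mixture means on the labelled shares on the linear scale, so that no pure array was used. For Gad1 1368344_at the estimate was 2954 ± 94.8 (SE, linear RMA units) for brain, against 2659 in the pure brain arrays, 381 ± 63.6 for liver, against 10.2 in pure liver, and 44.5 ± 96.4 for lung, against 9.41 in pure lung. The brain estimate was 1.11 times the pure level, and the liver estimate lay far above pure liver. Leaving out each mixture in turn, an alternative added after seeing the data, moved the Gad1 liver estimate between 246 (without 25/70/5) and 516 (without 70/5/25). Slc32a1 gave 345 ± 12.4 for brain, against 310 in pure brain, and 48.8 ± 8.33 for liver, against 13.5 in pure liver, and Gad2 gave 292 ± 10.9, against 239, and 45.5 ± 7.28, against 26.0.

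For the breakdown genes the brain and liver estimates mostly lay below the pure levels. Abat 1369799_at gave 21.5 ± 22.8 for brain, against 117 in the pure brain arrays, 626 ± 15.3 for liver, against 728 in pure liver, and 30.6 ± 23.2 for lung, against 9.21 in pure lung. By this probe set the mixtures thus gave a brain level within its error of 0. Without single mixtures the estimate lay between -50.2 (without 25/70/5) and 48.7 (without 70/5/25). The dimmer Abat probe sets 1375321_at and 1391365_at gave 24.2 ± 2.32 and 20.7 ± 1.47 for brain, against 27.9 and 20.3 in pure brain. Both were called higher in brain than in lung (limma, adjusted p = 0.00184 and 0.000355). Neither was called between brain and liver (limma, adjusted p = 0.429 and 0.0516). Pure brain arrays also read Alb at 12.21 (above), and whether that bears on Abat in brain was not tested. Aldh5a1 1379900_at gave 347 ± 17.0 for brain, against 369 in pure brain, and 198 ± 11.4 for liver, against 236 in pure liver, so brain was the higher by mixtures as well (limma, adjusted p = 0.000296). Aldh5a1 1371062_at gave 49.4 ± 6.42 for brain, against 64.3, and 95.05 ± 4.30 for liver, against 159, with liver the higher (limma, adjusted p = 0.0015). With the control curve brain minus liver was 301 for 1379900_at and 1.10 for 1371062_at (linear units), the second turned in sign and not called (limma, adjusted p = 0.946).

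From the mixtures alone, 5 members were higher in brain than in liver (32.1% of all) and 2 lower (28.6%), 8 higher in brain than in lung (28.9%) and 0 lower (31.7%), and 10 higher in liver than in lung (29.2%) and 0 lower (30.7%). The last count includes both Gad1 probe sets, Gad2 and Slc32a1, which had no such call in the pure tissues, where a call also needed 2-fold. Pure liver against lung was 0.49 for Gad1 1370760_a_at and 0.63 for Gad2 (limma, adjusted p = 0.000113 and 0.00107), short of that limit. For Gad1 1368344_at and Slc32a1 the pure tissues gave 0.10 and 0.01 (limma, adjusted p = 0.233 and 0.946). The mixtures-only calls of these brain genes rest on few mixtures. Without 5/25/70, in which lung prevails, Gad1 1368344_at, Gad2 and Slc32a1 were no longer called (limma, adjusted p = 0.0788, 0.066 and 0.24). Gad1 1368344_at was not called without 70/25/5, 65/34/1 or 60/35/5 either (limma, adjusted p = 0.0725, 0.0661 and 0.0526) or after background subtraction (0.0651). With the control curve none of the 4 was called. Abat 1369799_at in brain against lung was not called (-9.09 ± 35.9 linear units; limma, adjusted p = 0.852), whereas the pure arrays differed 12.7-fold, and it was called lower in brain without 25/70/5 (limma, adjusted p = 0.0313).

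**Figure D5:**
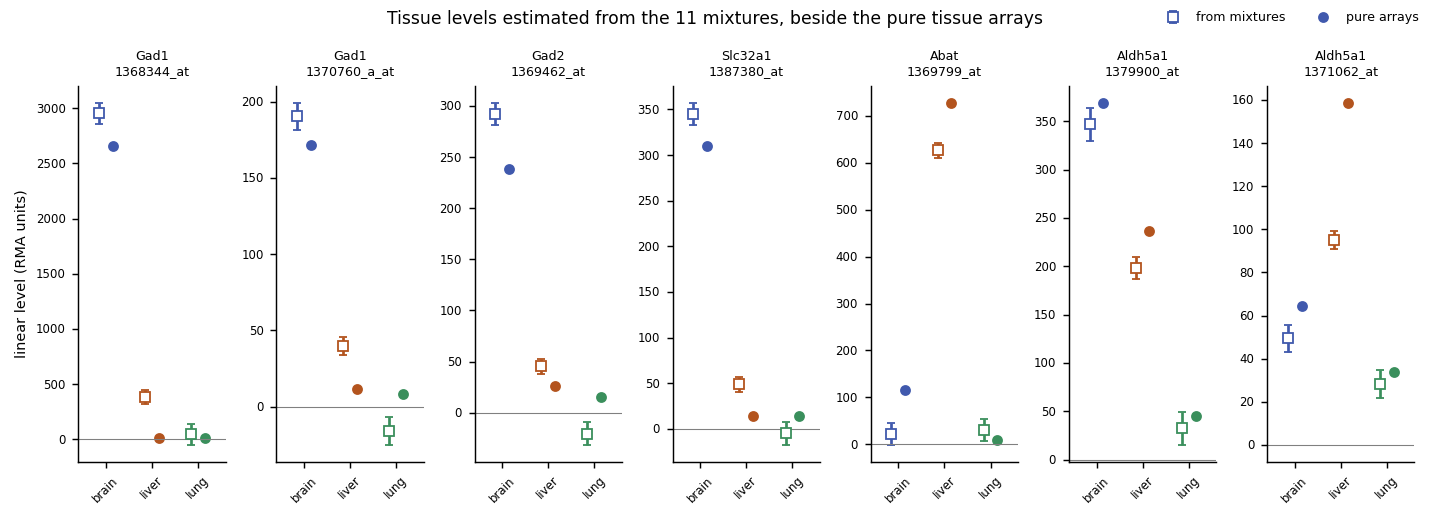
Linear RMA levels (y axis, own scale per panel) of 7 probe sets in brain, liver and lung (x axis): open squares are estimates from the 11 mixtures with their SE, filled circles the means of the 3 pure arrays. Brain estimates of Gad1, Gad2 and Slc32a1 lie somewhat above the pure level and their liver estimates above pure liver. The brain estimate of Abat 1369799_at (21.5) lies below its pure level (117).

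The genes whose profiles were most like each member were taken as those with the smallest root mean square difference of centred log2 group means over the 14 groups, among 14217 genes with 1 probe set each. For Gad1 they were Gabra6, a GABA-A receptor subunit of cerebellar granule cells (0.08), Scg2, secretogranin (0.13), and Calb1 (0.16). For Gad2 they were Gabrg1, another GABA-A receptor subunit (0.08), the homeobox gene En2 (0.08) and Fam131b (0.09), and for Slc32a1 Nlgn1, a neuroligin (0.06), the cystine carrier Slc7a11 (0.07) and Pcdh20, a protocadherin (0.08). For Abat they were Mro (0.10), Cbs, cystathionine beta-synthase (0.22), and Sall1 (0.27), and for Aldh5a1 Usp2 (0.06), Tspan33 (0.07) and the mitochondrial carrier Slc25a23 (0.10). For Slc6a11 they were Prph2, Amz2 and Usp5 (0.09 to 0.10), which for a probe set near control level describes dim profiles.

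Among the members, Gad2 and Slc32a1 were nearest to each other, with a difference of 0.32 and a Pearson r of 0.98 over the 14 groups. Many genes outside the pathway were nearer: over all genes Slc32a1 was 251st in likeness to Gad2. Likewise, Gad2 was 440th in likeness to Gad1, and Aldh5a1 537th to Abat. Abat had a Pearson r of 0.74 with Aldh5a1, 0.41 with Slc6a11, 0.33 with Gad1, 0.32 with Gad2 and 0.26 with Slc32a1. Aldh5a1 had a Pearson r of 0.82 with Slc6a11, 0.78 with Gad2, 0.71 with Slc32a1 and 0.66 with Gad1. These values describe 14 groups made from the same 3 RNAs, so the points are not independent.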

How the data were processed

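RNA of brain, liver and lung of 1 rat was hybridised to 42 arrays in 14 groups of 3 technical replicates, and the labelled shares set the groups. The table deposited by the authors holds RMA values on a log2 scale (2.12 to 14.43), per the submitters' processing notes. No source used here gives a version of RMA. Because RMA forces similar distributions on arrays, tissues may be scaled unevenly. Of 31099 probe sets 57 controls were left out. Per the platform annotation 20826 had 1 gene symbol, 436 several and 9780 none listed. At most 28 values were exactly equal, at all deposited decimals, in a replicate pair, so each array counted as 1 replicate. The number of arrays limits the precision.

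limma 3.58.1 (R 4.3.3) fitted a mean per group to all arrays together (28 residual, 4.56 prior degrees of freedom) with Benjamini-Hochberg adjustment over 31042 probe sets. Pure tissues were called at adjusted p under 0.05 and 2-fold, departures from linear mixing at 1.5-fold with delta-method errors, and mixture pairs and the mixtures-only regression (variance trend, 8 residual degrees of freedom) with no fold limit. Named were all members, the 3 most alike genes of each and, per list, up to 4 genes with the largest difference from the next tissue and any highest outside the tissue of the list. The brightest probe set over all arrays stood for a gene. Members and lists were chosen with earlier results of these data known. Alternatives covered the arrays fitted, the variance model, median centring, repeated quantile normalization, leaving out probe sets with no group mean over 5.73 (3 of the 11), background subtraction (5th percentile, floor of 1), log2 mixing, single arrays in the regression, every probe set of a gene, a curve through the hybridisation controls bioB, bioC, bioD and cre, and each array or mixture left out. On simulated arrays of 31042 probe sets, departures of 2-fold were recovered in 100% and of 1.5-fold in 48% of cases, and brain against liver differences of 4-fold in 100% and of 2-fold in 46%, with 0 false calls. On mixtures simulated as exact linear sums, the mixtures-only regression recovered 99.3% of differences of at least 2-fold for brain against liver. It recovered 97.9% for brain against lung and for liver against lung, with 26, 19 and 23 probe sets called in the wrong direction. The deposited mixtures departed from exact sums (median -0.22, log2, over all probe sets), so these rates were not shown for them. Figures used matplotlib 3.10.9 under Python 3.11.15.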

Additional observations from a re-analysis of the deposited data

How the results depend on the processing

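The brain calls of Gad1, Gad2 and Slc32a1 and both liver calls of Abat 1369799_at kept direction and side of the limit under every alternative that was run on them. Of 36 calls over the 6 mixture pairs, 33 to 38 remained in number without single arrays and 18 with the curve through the hybridisation controls. For the members' pair differences that changed under the curve the SE was 0.241, against 0.07 for Gad1 1368344_at as deposited. A call could thus be lost with little change in the difference. Departure calls numbered 2, from 0 to 2 without single arrays (0 without liver replicate 2), 6 with share-weighted log2 levels and 0 with the curve. Sign changes were as follows, and their cause was not tested. With the curve, brain against liver was 0.61 for Abat 1391365_at and 0.56 for Aldh5a1 1391657_at, and liver against lung was -0.82 and -0.42 for Gad1 1368344_at and 1370760_a_at, -0.28 for Gad2, -0.90 for Slc32a1, -0.63 for Slc6a11 and -0.55 for Aldh5a1 1391657_at. Among pairs under the curve, Aldh5a1 1371062_at was 0.12 for 25/70/5 minus 70/25/5 and 0.10 for 55/20/25 minus 70/5/25, and Abat 1369799_at was 0.012 for 70/25/5 minus 70/5/25. Departures under the curve were 0.057 for Slc6a11 and 0.0011 for Abat 1369799_at. The mixtures-only differences under the curve (linear units) were 1.10 for brain against liver of Aldh5a1 1371062_at, 79.1 for brain against lung of Abat 1369799_at, and -39.2 and -0.62 for liver against lung of Gad1 1368344_at and Slc32a1. With quantile normalization repeated, liver against lung was -0.16 for Gad1 1368344_at and -0.25 for Slc32a1, the Slc6a11 departure 0.095, and 70/25/5 minus 70/5/25 of Aldh5a1 1371062_at -0.045, with median centring -0.031. With share-weighted log2 levels, which can only raise a departure, departures were 0.64 (called) for Abat 1369799_at, 0.048 for Aldh5a1 1379900_at and 0.012 for Slc6a11. The Slc6a11 departure was 0.098 after background subtraction. Without single arrays, liver against lung ran from -0.060 to 0.20 for Gad1 1368344_at and from -0.15 to 0.25 for Slc32a1, brain against lung of Aldh5a1 1391657_at from -0.014 to 0.14, 70/25/5 minus 70/5/25 of Aldh5a1 1371062_at from -0.017 to 0.056, and the Slc6a11 departure from -0.063 to 0.030. Without single mixtures, brain against lung of Abat 1369799_at was 31.3 (without 70/5/25) and 19.9 (without 5/25/70), and the Slc6a11 departure 0.0025 (without 5/25/70). The mixtures-only calls numbered 25 of 33, and 23 to 27 without single mixtures. The pair 45/45/10 minus 50/40/10 had 56 calls among all probe sets without dim ones, 29 with repeated quantile normalization and 1 with median centring. All replicates are arrays of 1 animal's RNA, folds against control levels are approximate, and the curve takes the hybridisation controls as added in equal amounts, which was not tested. No paired analysis was possible because the labels give no replicate numbers shared between groups.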
